A study of Oryza sativa with 24 samples.

Results

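Young inflorescences of the rice tap mutant, 2 mm long, were compared between plants kept at a high and at a low temperature. The comparison uses 6 of the 24 RNA sequencing libraries of the study, 3 from tap at high temperature and 3 from tap at low temperature, chosen by their labels alone. The other libraries cover tap at 3 mm and the wild type (WT) at each length, at the same 2 temperature levels, with 3 libraries in each of 8 groups. All plants carry the line name 9522 in the labels, so every group shares that background. The labels give the genotype of these 6 libraries as tap mutant in one field and as ild in the titles. The deposited high-temperature columns call the mutant iHT, and they were read as tap because the remaining high-temperature columns are named WT. No source used here gives the degrees, the length of the treatment, the mutated locus, the mutant allele or the number of plants per library.

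The rice inflorescence, or panicle, forms when the shoot apex stops making leaves and lays down branch meristems, which then produce spikelets, the units that hold the florets. This stage is sensitive to temperature, and plants answer a rise in temperature by broad changes of transcription, among them the induction of chaperone genes by heat shock factors. By its title, the series concerns TAP (THERMO-SENSITIVE BARREN PANICLE), which rice needs to form panicles and spikelets when it is hot. The comparison therefore describes how the transcripts of a mutant that depends on temperature differ between a warm and a cool environment.

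The deposited table identifies loci by number only. None of its 26480 identifiers was found in the RefSeq gene table for rice (0 matches), so loci appear below by identifier, no function is given for them, and the tissue could not be checked against marker genes. The chromosome is read from the identifier. Expression levels are in CPM, the reads of a locus relative to those of its library, scaled with trimmed-mean (TMM) factors. The total count of the 6 libraries ran from 19819257 to 21238557. Their TMM factors were 0.946 to 0.978 at high and 1.033 to 1.061 at low temperature, and the number of loci at 0 counts was 2215 to 2366 per high-temperature library against 911 to 923 per low-temperature library. The rows follow a minimum that only the low-temperature libraries meet: no locus summed to less than 10 counts over those 12, while 723 loci were at 0 in all 12 at high temperature. High and low temperature also differ in how their columns are named, and whether plants, sequencing and counting were shared is not stated in the labels. Temperature and separate handling thus cannot be told apart in any difference below. In pieces of tissue, fewer cells of a type and less RNA per cell cannot be told apart either.

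Most of the transcriptome of 2 mm tap inflorescences differed between the temperatures, with TMM scaling about as often upward as downward. Of 23658 loci tested with edgeR's quasi-likelihood test, 16313 were called at an adjusted p under 0.05, which is 69.0%, with 32.5% higher and 36.5% lower at high temperature. To keep the choice of rows from counting against the rises, rises and falls were counted among the 21780 loci with at least 10 counts, summed over 3 libraries, at each temperature. Of these, 67.2% were called. At high temperature, 7437 loci rose, 34.1% of those counted, and 7197 fell, 33.0%. This balance depends on the scaling. With library totals in place of TMM factors, 6260 loci rose and 8433 fell. The median log2 difference of those that rose was 0.79 and of those that fell -0.9, with a median SE of 0.14. The library values of the 2 temperatures did not overlap for 7096 of the loci that rose and for 6937 of those that fell. These loci had been called from the same values, so the lack of overlap is a description and adds no support. The share without overlap over all loci was not counted. The test against a 1.5-fold change called 8742 of all tested loci, 37.0%.

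Large changes were more often falls. Differences of more than 2-fold were called upward for 2639 loci and downward for 3173, those of more than 4-fold for 650 and 988, and those of more than 8-fold for 238 and 340. Over all loci with the minimum, the median log2 difference was 0.005, and the range from the 5th to the 95th percentile was -1.92 to 1.62. Over all tested loci it was -0.055, and with library totals in place of TMM factors -0.182, so a change of scaling moves every locus by about as much as the gap between these values. The minimum removed 1510 loci that were under 10 counts at high temperature alone, of which 1425 were called lower, and 295 that were under it at low temperature alone, of which 250 were called higher. Just inside the minimum, 71 loci had 10 counts at high temperature, with a median log2 difference of -1.99. Just outside it, 70 loci had 9 counts, with a median of -2.11.

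The balance of rises and falls changed with the level of the transcript. Counts here are of loci with the minimum, by their mean CPM over the 6 libraries. Up to 1 CPM, 294 of 1841 loci rose (16%) and 378 fell (20.5%). From 1 to 10 CPM the shares of 6392 loci were 28.5% and 36.8%, and from 10 to 100 CPM those of 11302 loci were 37.7% and 34.1%. Above 100 CPM, 47.1% of 2245 loci rose and 27.4% fell. The median log2 difference of these bands went from -0.09 and -0.14 to 0.03 and 0.18. The most abundant transcripts were thus more often called higher than lower. In the lowest band the excess of falls depends on the minimum, since without it 41.2% of 3166 loci fell and 16.0% rose, and the rows were kept by their low-temperature counts.

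**Figure D1:**
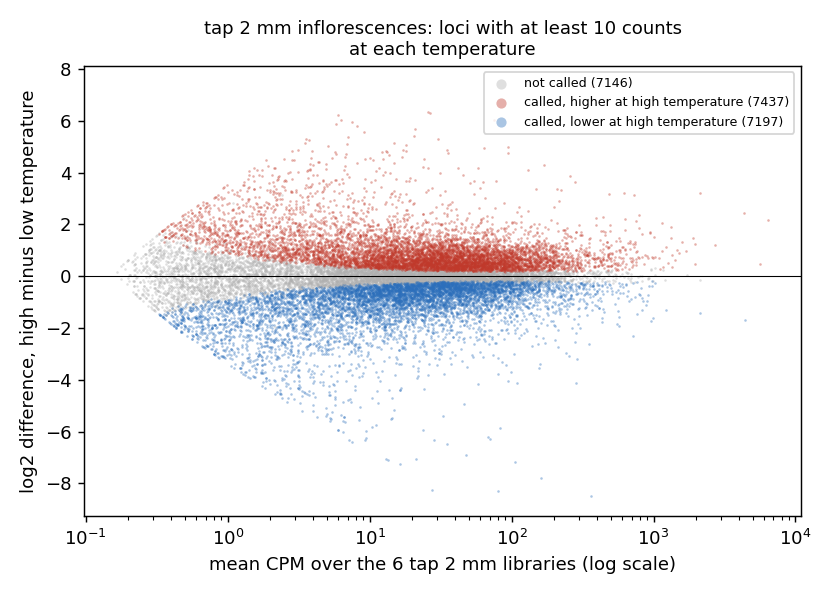
Difference between the temperatures against the level, for the loci with at least 10 counts at each temperature. The horizontal axis is the mean CPM over the 6 tap 2 mm libraries on a log scale, the vertical axis is the log2 difference, high minus low temperature, and each point is a locus. The 7437 called rises in red and the 7197 called falls in blue lie on either side of 7146 loci in grey that were not called. The slanted edges at the left come from the minimum of 10 counts.

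The loci with the largest changes went from near the bottom of the scale to a substantial level, or the reverse, and did so in each library. They were chosen for the size of the change and for library values without overlap between the temperatures. The gap between the libraries is therefore a description and adds no support. LOC_Os09g07350 on chromosome 9 stood at 708, 641 and 860.3 CPM in the 3 high-temperature libraries, while the low-temperature libraries held 4.25, 4.16 and 5.23 CPM. Every high value was far above every low value, and the fitted rise was 162-fold (log2 7.34 ± 0.18 SE, adjusted p = 1.4e-22). LOC_Os04g32680 on chromosome 4 reached 48.5, 49.2 and 55.6 CPM under high temperature against 0.374, 0.778 and 0.7 CPM under low temperature, an 81.8-fold rise (log2 6.35 ± 0.18, adjusted p = 1.2e-22).

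The leading falls were steeper than the leading rises. LOC_Os04g35010 on chromosome 4 was among the abundant transcripts at low temperature, with 704, 739 and 711 CPM, and was at 1.78, 3.01 and 1.23 CPM at high temperature. This was a 358-fold fall (log2 -8.48 ± 0.21, adjusted p = 1.1e-21). LOC_Os01g37920 on chromosome 1 fell 317-fold, from 157, 156 and 165 CPM to 0.385, 0.527 and 0.587 CPM (log2 -8.31 ± 0.21, adjusted p = 1.3e-23). In all 4 loci the libraries of each temperature lay close together next to the gap between the temperatures.

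WT showed the same pattern at these 4 loci. The WT log2 differences at 2 mm were 7.12 for LOC_Os09g07350, 5.76 for LOC_Os04g32680, -8.37 for LOC_Os04g35010 and -8.57 for LOC_Os01g37920. None of their interactions of genotype and temperature was called (adjusted p = 0.52, 0.14, 0.83 and 0.7). The interaction of LOC_Os09g07350 was 0.22 ± 0.23 SE on the log2 scale, and that of LOC_Os01g37920 was 0.26 ± 0.44.

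**Figure D2:**
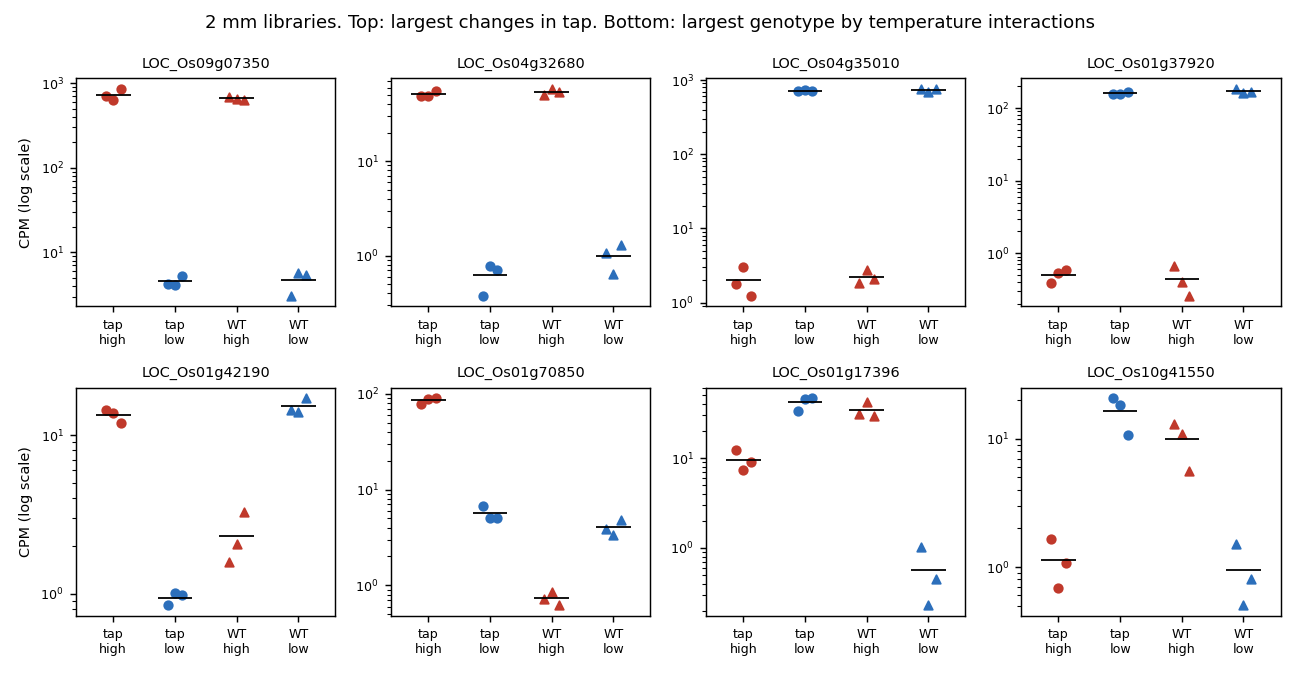
Levels in every 2 mm library of 8 loci. The vertical axes are CPM on a log scale, red marks high and blue low temperature, circles are tap and triangles WT libraries, and bars are means of 3 libraries. In the top row, the loci with the largest changes in tap, tap and WT move alike. The bottom row holds the largest genotype by temperature interactions among loci called in tap, with at least 10 counts in each of the 4 groups. There tap and WT move in opposite directions. All 8 loci were chosen for tap library values that do not overlap between the temperatures.

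The largest differences in CPM were those of very abundant transcripts. LOC_Os11g47760 on chromosome 11 reached 9922, 10621 and 11032 CPM in the high-temperature libraries, against 2390.4, 2274 and 2322 CPM in the others. It rose 4.52-fold (log2 2.18 ± 0.12, adjusted p = 6.3e-16), and in WT its log2 difference was 1.88, with an interaction of 0.29 ± 0.16 (adjusted p = 0.18). LOC_Os03g46770 on chromosome 3 fell 3.24-fold, from 6431, 7091 and 6548 CPM to 2140.1, 1876 and 2173 CPM (log2 -1.7 ± 0.14, adjusted p = 4.1e-12). LOC_Os01g14850 on chromosome 1 fell 2.68-fold, from a mean of 3100.5 ± 122 CPM (SD, n = 3) to 1155 ± 76.2 CPM (adjusted p = 1.3e-12).

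LOC_Os05g02070 on chromosome 5 had the second largest gain in CPM and is the one of these 4 abundant loci with a called interaction. In tap its low-temperature values of 1028, 1539 and 1524 CPM compare with 6699.7, 6822 and 8529 CPM under high temperature, a 5.39-fold rise (log2 2.43 ± 0.25, adjusted p = 7.4e-08). In WT of the same length the means were 3031 ± 564 and 2118 ± 353 CPM, and the difference was not called (log2 0.52 ± 0.24, adjusted p = 0.067). The rise in tap exceeded that in WT by 1.91 ± 0.34 on the log2 scale (adjusted p = 0.00042), and at 3 mm by 1.44 ± 0.34 (adjusted p = 0.0042). In WT at 3 mm, where 65.8% of tested loci were called (30.8% upward and 35.0% downward), the locus rose by 0.62 ± 0.24 (adjusted p = 0.031).

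Some loci had counts at one temperature and none at the other. In tap at 2 mm, 561 tested loci were at 0 throughout the 3 high-temperature libraries, and 32 throughout the 3 low-temperature libraries. The latter number is held down by the choice of rows, each of which has counts in some low-temperature library, so neither direction is read as the more frequent. LOC_Os12g42390 had 32.7, 36.8 and 31 CPM at low temperature and no count at high temperature, which made it at least 654-fold lower when a group at 0 is given a floor of 3 counts in all. LOC_Os02g43640 had 29.1, 29.9 and 28.3 CPM and no count, at least 568-fold lower. WT at 2 mm was alike, with LOC_Os12g42390 at no count at high and 40.7 ± 1.22 CPM at low temperature. LOC_Os02g43640 had 2 counts in all at high and 29.1 ± 3.51 CPM at low temperature in WT at 2 mm. Neither locus had a count in the high-temperature libraries of tap at 3 mm. The loci seen at high temperature alone were scarce. LOC_Os10g31320 on chromosome 10 reached 3.13, 2.11 and 1.97 CPM, at least 52.3-fold higher. LOC_Os06g21240 on chromosome 6 reached 1.59, 5.01 and 1.6 CPM, at least 58.2-fold higher, with most of its counts in replicate 2. In WT at 2 mm LOC_Os06g21240 was at 2.86 ± 1.76 CPM at high and 0.134 ± 0.193 CPM at low temperature.

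A related pattern, with a limit for each library, was counted here and in other libraries, over all loci and not only those tested. In tap at 2 mm, 593 loci kept to at most 1 count per library at high temperature although each low-temperature library held 10 or more. Their median level at low temperature was 2.11 CPM, and the highest was 76.2 CPM. At 3 mm 604 loci of tap met the same criterion, of which 429 were shared with 2 mm, and in WT at 2 mm 598 did, of which 417 were shared. The opposite pattern was met by 22 loci of tap at 2 mm and by 11 at 3 mm, of which 1 was shared, and by 9 loci of WT at 2 mm, of which 0 were shared. Each row needed counts in some low-temperature library, which limits how many loci of this kind 2 groups can share. The overlaps of the 2 directions are therefore not compared. The shared locus, named after its values were seen, was LOC_Os01g67820. Its levels in the 2 mm tap libraries were 1.73, 2.37 and 2.03 CPM under high temperature, with no count under low temperature. In WT at 2 mm it was present at each temperature, at 0.869, 0.553 and 1.13 CPM at high and 2.03, 0.731 and 0.8 CPM at low temperature.

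The response at 2 mm was nearly the same as that of 3 mm tap inflorescences, which come from other libraries. Among the loci that rose at 2 mm, 6638 (89.3%) also rose at 3 mm and 0 fell. Among those that fell at 2 mm, 6128 (85.1%) also fell at 3 mm. Over all tested loci, 68.6% were called at 3 mm, 32.9% upward and 35.7% downward. Of the changes of more than 4-fold, 97.7% of the rises and 98.8% of the falls were called in the same direction at 3 mm. Seen from the 3 mm lists with the same minimum, 86.9% of 7554 rises and 86.5% of 6947 falls were shared. The log2 differences at the 2 lengths had r = 0.94 and Spearman's rho = 0.93 across the loci with the minimum; loci are not replicates, and this is a description.

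A single locus fell at 2 mm and rose at 3 mm in tap. LOC_Os01g36240 on chromosome 1, named after its values were seen, went from 53.6 ± 8.48 to 43.6 ± 4.64 CPM at 2 mm (log2 -0.30 ± 0.13, adjusted p = 0.035) and from 53.7 ± 5.02 to 65.4 ± 7.56 CPM at 3 mm (0.28 ± 0.12, adjusted p = 0.046). The difference between these changes was itself not called (0.58 ± 0.18, adjusted p = 0.47).

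**Figure D3:**
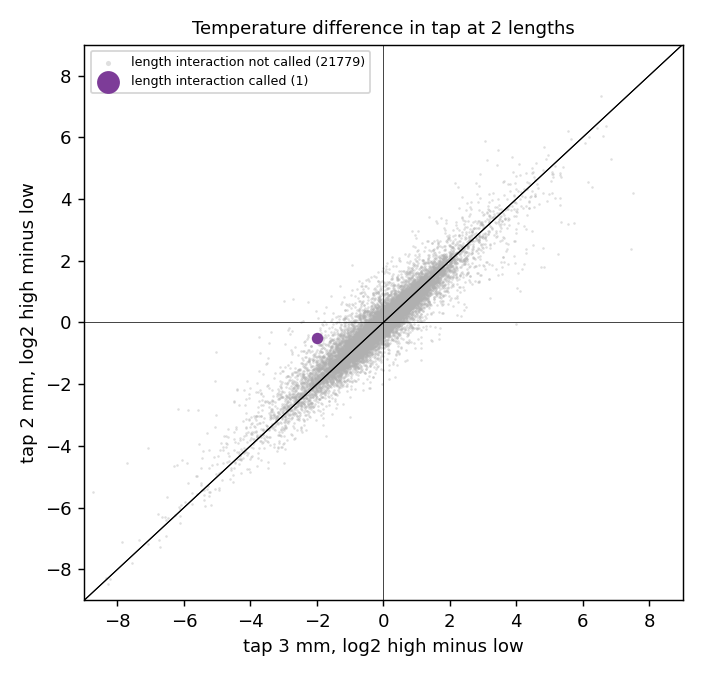
Temperature difference in tap at 2 mm (vertical axis) against that at 3 mm (horizontal axis), each as log2 high minus low, for loci with at least 10 counts at each temperature at 2 mm. Points are loci and the slanted line marks equal differences. The 21779 loci in grey had no called length by temperature interaction, and the 1 locus in purple did.

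The direct test of a dependence on length called 1 of 23658 loci, 0.00423%, by edgeR. At an unadjusted p under 0.05 it counted 1691 loci, and DESeq2 called 15. The median absolute difference between the lengths was 0.17 on the log2 scale, with a median SE of 0.2. The locus called by edgeR was LOC_Os02g53180 on chromosome 2. At 2 mm it fell to 64.1, 83.4 and 64 CPM at high from 96.9, 103 and 102 CPM at low temperature. At 3 mm these values were 22.3, 25.2 and 26.8 CPM and 98.4, 96.6 and 100.5 CPM. Low-temperature libraries of the 2 lengths were alike, while high-temperature libraries were lower at 3 mm. Its fall was thus larger at 3 mm, by 1.48 on the log2 scale (interaction -1.48 ± 0.18, adjusted p = 0.00011). In WT the same locus rose with temperature, from 129 ± 25 to 342 ± 29.2 CPM at 2 mm and from 134 ± 24.3 to 213 ± 11.3 CPM at 3 mm.

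The response of tap had much in common with that of WT but differed at many loci. At 2 mm, 63.8% of tested loci were called in WT, 29.8% upward and 34.1% downward. Of the loci that rose in tap, 5011 (67.4%) also rose in WT, 2078 (27.9%) were not called there and 348 (4.68%) fell. Of those that fell in tap, 4817 (66.9%) also fell in WT, 2046 (28.4%) were not called and 334 (4.64%) rose. Seen from the WT lists with the same minimum, 72.0% of 6913 rises and 70.8% of 6641 falls were shared. The log2 differences of tap and WT at 2 mm had r = 0.72 and rho = 0.7 across the loci with the minimum in tap.

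Loci missed in WT were not all shown to differ from tap. The interaction of genotype and temperature was called at 26.8% of all tested loci. It was called for 2438 of the loci that rose in tap (32.8%) and for 2276 of those that fell (31.6%). Of the 2078 rises that were not called in WT, 1010 had a called interaction (48.6%), and of the 2046 falls 918 had one (44.9%). Where both genotypes rose, the interaction was called at 1080 of 5011 loci, 581 of them with the larger rise in tap, and where both fell at 1024 of 4817, 615 of them with the larger fall in tap. These loci had been chosen by a call in tap, which favours larger values there.

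Strong rises and strong falls were shared with WT to unequal extents. Of 650 loci that rose more than 4-fold in tap, 389 (59.8%) rose in WT, 221 (34.0%) were not called and 40 fell. Of 988 loci that fell more than 4-fold, 903 (91.4%) fell in WT, 69 (6.98%) were not called and 16 rose. The median log2 differences were 2.67 in tap and 1.26 in WT for the rises, and -2.64 and -2.25 for the falls. At 3 mm in tap, the medians of the same loci were 2.61 and -2.70. Interactions were called for 323 of the strong rises (49.7%) and for 305 of the strong falls (30.9%).

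**Figure D4:**
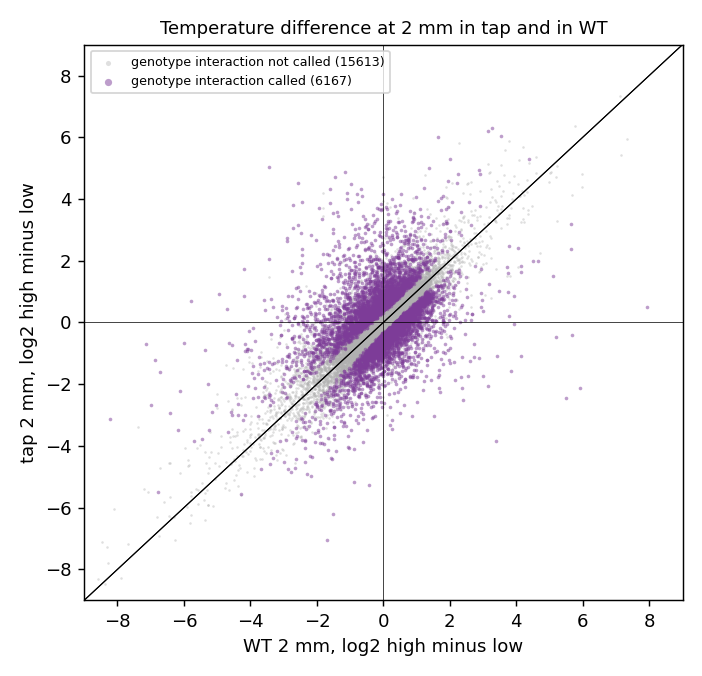
Temperature difference at 2 mm in tap (vertical axis) against that in WT (horizontal axis), each as log2 high minus low, for loci with at least 10 counts at each temperature in tap. Points are loci, the slanted line marks equal differences, and the 6167 loci with a called genotype by temperature interaction are purple beside 15613 in grey. Points at the upper left and lower right moved in opposite directions in tap and WT.

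The 348 and 334 loci that turned around between the genotypes did so mostly by moderate amounts. The median log2 difference of the former was 0.72 in tap and -0.73 in WT, and of the latter -0.54 and 0.54. In the 3 mm libraries, where 26.4% of all tested loci had a called interaction, 293 of the 348 (84.2%) and 270 of the 334 (80.8%) had one of the same sign, and 0 had one of the opposite sign. Each genotype's own change was called again in the same direction for 145 of the 348 (41.7%) and 118 of the 334 (35.3%). Most of these loci were thus not called in opposite directions again at 3 mm. The share of all tested loci called in opposite directions at 3 mm was not counted.

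The leading interactions were taken from loci called in tap at 2 mm, with no overlap of the tap library values between the temperatures. They also had at least 5 CPM in one of the 4 groups at 2 mm and at least 10 counts in each. A locus that changed in WT alone could not be among them. The 4 loci named by this rule had opposite responses in tap and WT. LOC_Os01g70850 on chromosome 1 rose in tap from 6.78, 5.08 and 5.09 CPM at low to 78.7, 87.8 and 89.9 CPM at high temperature, 15.1-fold (log2 3.92 ± 0.15). In WT it fell from 3.87, 3.38 and 4.8 CPM to 0.716, 0.855 and 0.617 CPM (log2 -2.45 ± 0.23). The genotypes were near each other at low temperature and far apart at high temperature, and the interaction was 6.37 ± 0.26 (adjusted p = 8.5e-17). The same held at 3 mm, with an interaction of 7.01 ± 0.28 (adjusted p = 2e-17).

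LOC_Os01g42190 on chromosome 1 behaved differently, with its genotype difference at low temperature turned round at high temperature. In tap it rose from 0.842, 1.01 and 0.981 CPM to 14.5, 13.7 and 11.9 CPM, 14.1-fold, while in WT it fell from 14.5, 14 and 17.1 CPM to 1.58, 2.06 and 3.29 CPM (interaction 6.53 ± 0.43, adjusted p = 1.5e-10). At 3 mm WT was at 23.4 ± 8.67 CPM at high and 17.4 ± 4.56 CPM at low temperature, and that difference was not called (adjusted p = 0.11), while the interaction was 3.06 ± 0.39 (adjusted p = 5.1e-06).

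The leading negative interactions were those of LOC_Os01g17396 and LOC_Os10g41550. LOC_Os01g17396 fell in tap from 33.7, 46.1 and 46.5 CPM to 12.2, 7.33 and 9.12 CPM and rose in WT from 1.01, 0.228 and 0.444 CPM to 30.7, 42.1 and 29.2 CPM. LOC_Os10g41550 fell in tap from 20.7, 18.2 and 10.7 CPM to 1.64, 0.686 and 1.07 CPM and rose in WT from 1.52, 0.502 and 0.8 CPM to 13.1, 10.9 and 5.65 CPM. At 2 mm the tap and WT libraries of each locus exchanged places between the temperatures. Their interactions were -8.05 ± 0.47 (adjusted p = 2.6e-10) and -7.24 ± 0.69 (adjusted p = 3.8e-07). No such exchange was seen at 3 mm. In those high-temperature libraries, LOC_Os01g17396 had means of 3.86 ± 1.33 CPM (tap) and 2.09 ± 0.683 CPM (WT), and LOC_Os10g41550 of 1.44 ± 0.541 and 1.45 ± 0.677 CPM. In WT at 3 mm the rise of LOC_Os01g17396 was called (log2 1.81 ± 0.49, adjusted p = 0.0032). That of LOC_Os10g41550 was not called there (log2 0.55, adjusted p = 0.43). The interactions of both loci were still called at 3 mm with the same sign. They were -5.25 ± 0.56 (adjusted p = 1.3e-06) for LOC_Os01g17396 and -4.04 ± 0.76 (adjusted p = 0.00068) for LOC_Os10g41550.

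Rises and falls were spread over all 12 chromosomes. Among loci with the minimum, the share that rose ran from 32.5% on chromosome 6 to 36.8% on chromosome 12, and the share that fell from 29.5% on chromosome 12 to 34.0% on chromosomes 4, 6 and 8. Neighbouring loci, in the order of their numbers, at times moved together. Over all tested loci, without the minimum, there were 7 runs of at least 4 neighbours that all rose at least 4-fold, holding 45 of 886 such loci, and 16 runs of falls, holding 86 of 2376. With the minimum, 4 runs of rises were left, holding 32 of 649 loci, and 0 runs of falls among 988 loci.

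The longest run without the minimum held 16 successive tested loci on chromosome 12, of which 15 met the minimum, from LOC_Os12g33956 to LOC_Os12g34100, where the next longest run of rises held 8. Among loci with the minimum the run was longer, with 18 loci up to LOC_Os12g34128, because the minimum left out LOC_Os12g34102. That locus lies within this stretch and fell in tap at 2 mm, from 43 to 8 counts (log2 -2.23 ± 0.64, adjusted p = 0.003). It was also called lower in WT at 2 mm (log2 -5.06) and in tap at 3 mm (log2 -1.55). The longer run took in LOC_Os12g34108, at 379 ± 183 CPM at high and 36.5 ± 3.08 CPM at low temperature. The values below are of the 16 loci. All 16 rose in tap at 2 mm, by 3.23 to 5.69 on the log2 scale (median 3.67). Their summed level was 232, 393 and 504 CPM in the high-temperature libraries and 26.3, 26.1 and 24.5 CPM in the low-temperature libraries. The high libraries differed more among themselves than the low ones, but none came near them. Of the 16, LOC_Os12g33958 was the most abundant, at 109 ± 32.8 CPM at high and 10.2 ± 1.12 CPM at low temperature. At LOC_Os12g34056 the high libraries differed about as much as their mean, at 41 ± 40.6 CPM.

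The run of 16 loci rose with temperature in WT too, from a lower level. Its summed level in WT at 2 mm was 55.4, 106 and 106 CPM at high and 7.92, 5.43 and 6.62 CPM at low temperature. In WT 12 of the 16 loci were called higher, with a median log2 difference of 3.66 over the 16, and the interaction was called for LOC_Os12g34096 alone. In tap at 3 mm all 16 were called higher, with a median of 3.33. Mean levels in tap at 2 mm were above those in WT at 16 of the 16 loci at high and at 15 at low temperature. The loci were chosen by their rise in tap, which favours higher values there at high temperature, and the share over all loci was not counted. At LOC_Os12g33956 the high-temperature means were close, 34.9 ± 14.4 CPM in tap and 33.5 CPM in WT. The counting of reads that fit near-identical copies is not stated, so neighbours that share sequence may share reads, and the part of shared reads in this pattern was not tested.

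**Figure D5:**
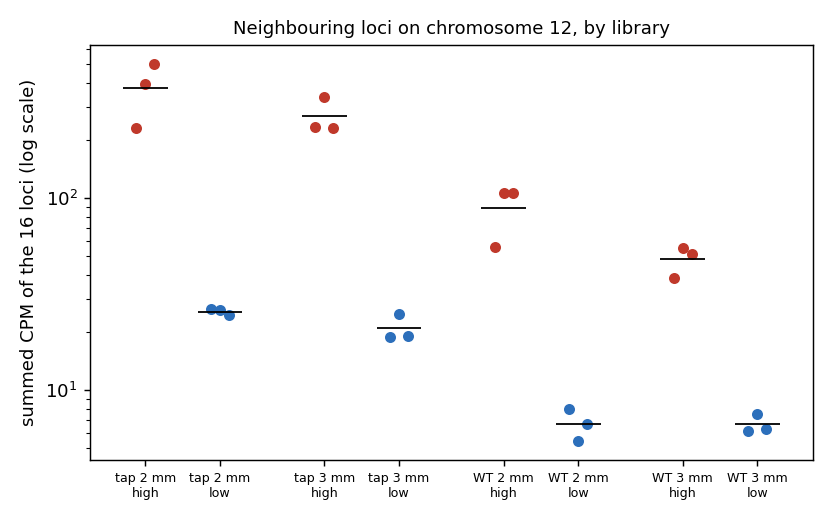
Summed level of the 16 neighbouring loci on chromosome 12 in each of the 24 libraries. The vertical axis is CPM on a log scale, points are libraries, red for high and blue for low temperature, and bars are means of 3 libraries. In all 4 pairs of groups the high-temperature libraries lie above the low-temperature libraries, and the tap libraries lie above the WT libraries of the same temperature.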

How the data were processed

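The authors deposited 1 table of raw read counts. The submitters' processing notes name the build IRGSP-1.0 and the tools HISAT2, HTSeq and Trimmomatic, and the labels' protocols name a SMARTER kit for mRNA libraries. Tool versions, annotation release and strand setting were not found there, so reads of overlapping or antisense loci may be mixed. Of 26480 loci, 70 without high-temperature values (no more than 0.224% of a low-temperature library) were left out. The model was fitted with edgeR 4.0.16 and limma 3.58.1 in R 4.3.3: filterByExpr (23658 loci), TMM factors, robust quasi-likelihood fit with a mean for each of 8 groups over 24 libraries and 16 residual degrees of freedom. P-values were adjusted over all tested loci by the Benjamini-Hochberg method. SEs are the log2 difference divided by the square root of F. Replicates are not said to be separate plants. P-values may therefore reflect technical spread alone. The code was tested on simulated data.

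Named loci were called, did not overlap between the temperatures of tap at 2 mm, and led in each direction, 2 at a time. They led by log2 change (at least 5 CPM at one temperature and 10 counts at each) or by CPM difference. Others led by level where the other temperature had 0 counts, or by called interaction (at least 5 CPM in one of 4 groups and 10 counts in each). The longest run of neighbours per direction was named too. The members, lists and rules were chosen with earlier results of these data known. Gene lists by symbol were not used, because no identifier could be matched. Alternatives were other scalings, filters and thresholds, DESeq2 1.42.0, fewer libraries and a replicate block. Bounds against 0 counts use a floor of 3 counts over the group and cover counting error only.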

Additional observations from a re-analysis of the deposited data

Results flagged for a closer look

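The temperature difference of 6 named loci was not the same in tap and WT at 2 mm by the interaction test. The interactions, tap minus WT on the log2 scale, were 1.91 for LOC_Os05g02070, 6.47 for LOC_Os10g31320, 6.53 for LOC_Os01g42190, 6.37 for LOC_Os01g70850, -8.05 for LOC_Os01g17396 and -7.24 for LOC_Os10g41550. That of LOC_Os10g31320 (adjusted p = 0.00013) rests on a tap group with 0 counts at low temperature, so its size is not determined. In WT at 2 mm that locus was at 1.04 ± 0.55 CPM at high and 0.227 ± 0.045 CPM at low temperature.

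The temperature difference of LOC_Os02g53180 in tap was not the same at 3 mm and 2 mm, with an interaction of -1.48 on the log2 scale.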

How the results depend on the processing

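All 271 values of named loci under 13 alternatives kept their direction and stayed on the same side of the threshold. The 13 did not include the changed thresholds. LOC_Os12g42390 and LOC_Os02g43640 had no value with at least 10 counts over the high-temperature libraries. The largest adjusted p was 0.014, for LOC_Os06g21240 without high-temperature replicate 2. Testing against 1.5-fold left 8742 called loci in place of 16313, 3478 rises and 3663 falls in place of 7437 and 7197, and 1467 interactions in place of 6344; an adjusted p under 0.01 left 3623 interactions. The counts of called loci, rises, falls and interactions moved by less than 1.5 times under the other alternatives. Without TMM factors there were 6260 rises and 8433 falls, and with no minimum per temperature 7688 and 8625. Among neighbours with the minimum, a setting chosen after seeing the data, 4 runs of rises in place of 7 and 0 runs of falls in place of 16 were found. Leaving out 1 tap 2 mm library gave 15280 to 15811 called loci, 6953 to 7331 rises, 6467 to 6866 falls, 5191 to 6727 interactions, and 1 to 2 length interactions. The single length interaction became 2 with median-of-ratios factors, library totals, no filter, or at least 10 counts over the high-temperature libraries, 4 with the compared libraries only, and 15 with DESeq2. Replicate numbers did not pair the samples: deviations of same-numbered high and low libraries correlated at 0.04, -0.1 and -0.06. With the replicate block there were 16012 called loci, 7292 rises, 7063 falls, 5801 interactions and 4 length interactions.

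Depth limits the comparison for loci near 10 counts per temperature.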

Other observations

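Loci that rose held 55.2% to 56.8% of the tested reads of a tap 2 mm library at high and 34.3% to 34.5% at low temperature, while loci that fell held 19.5% to 20.6% and 38.7% to 39.1%. These loci were chosen by the same counts, so the shares are a description.

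Replicates were closer at low temperature. Over loci of at least 5 CPM, the median coefficient of variation was 10.4% at high temperature (15782 loci) and 6.31% at low temperature (16265 loci). Among called loci with the minimum, 1 library held at least 80% of the counts of its group at 8 loci at high and at 6 loci at low temperature.

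Without the minimum of 10 counts at each temperature, the longest run of neighbours that fell lay on chromosome 8 and held 9 loci, LOC_Os08g43890 to LOC_Os08g43980. All were scarce, with 0.356 to 2.51 CPM at low temperature, and at most 3 counts per locus remained over the high-temperature libraries, where 5 of the 9 had 0. None of the 9 (0) met the minimum. Their summed counts were 173, 185 and 193 in the low-temperature and 1, 2 and 3 in the high-temperature libraries. All 9 were also called lower in WT at 2 mm and in tap at 3 mm, and none of the 9 interactions was called.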
